A study of Arabidopsis thaliana with 12 samples.

Results

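The genes described here encode 2 families of conjugating enzymes of Arabidopsis thaliana, the UDP-dependent glycosyltransferases (UGT) and the tau class of glutathione transferases (GSTU). Members were all genes whose symbol is UGT or GSTU followed by a number and whose probe set the array annotation pairs with 1 gene, with 1 probe set per gene. There were 58 such genes, 47 UGT and 11 GSTU, of 13356 genes with a single-gene probe set. Each had a single probe set, so that the choice among probe sets had no effect. Another 3 probe sets that name a UGT gene together with a second gene were left out. The annotation lists 4 further genes under other names, UF3GT, GT72B1, SGT and AT5G54010, with a UGT name as a synonym, and these are not members.

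RNA from leaves of 2-week-old seedlings was measured on 12 Affymetrix ATH1 arrays, 2 in each of 6 groups. The groups are the rdm4 mutant and the wild type (WT), each after 0, 3 and 48 h at 4 °C, and before chilling all plants grew under days of 23 °C and nights of 18 °C. RDM4 is a protein that associates with RNA polymerase II and acts in RNA-directed DNA methylation, and the design asks how chilling changes transcripts with and without it. The labels conflict on the genetic background, C24 in the titles and Col in other fields, and under genotype the mutant arrays carry a 35S::RDM4 construct, which would be an overexpressor. The replicate 2 arrays have descriptions whose treatments do not match their titles, and the titles were followed. Each plate held at least 30 seedlings, so that an array reads a pool of plants, and the labels place replicates in different growth chambers. Unchilled plants were sampled at 0 h only, so chilling, plant age and the hour of sampling cannot be told apart. In leaf RNA of this kind, fewer cells of a type and less RNA per cell cannot be told apart.

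UGT enzymes move a sugar from a UDP-sugar onto small molecules such as flavonols, hydroxycinnamic acids, plant hormones and glucosinolate precursors, which changes their solubility, storage and activity. Tau glutathione transferases join glutathione to reactive or foreign compounds, bind other ligands, and are best known in plants for herbicide detoxification and stress responses. In leaves, flavonol and anthocyanin glycosides accumulate in the vacuole, and cold is one of the conditions under which they are known to build up.

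Levels are the deposited log2 values, in which a step of 1 is a factor of 2. Differences are log2 differences ± SE from a limma model of the 6 group means, and a difference was called at an adjusted p under 0.05 (Benjamini-Hochberg over 22746 probe sets). Probe sets bind with different strength, so levels are compared between arrays and not between genes. Probe sets of closely related family members may read each other's transcripts. Among the members, 9 lay among the dimmest 30% of probe sets in all 6 groups, 13 in some of them and 36 in none, and a change that starts or ends at such a level is of uncertain size.

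The labels of genotype need care at 0 h and 3 h. Of the probe sets called between rdm4 and WT at both 0 h and 3 h, 92.7% had opposite signs at these times, against 78.4% of those called at both 3 h and 48 h and 22.2% of those called at both 0 h and 48 h. Whether genotype labels were exchanged at one of these times was not tested, and the RDM4 transcript was not analysed here. The responses of each genotype, and the differences between them, rest on the labels at 0 h as well as those at the later time. The summed level of 4 root markers (2 expansins, a peroxidase and the β-glucosidase PYK10, of 6 listed) was likewise higher in rdm4 than in WT at 0 h and lower at 3 h. The sum was taken before the log2 step and is mostly PYK10, the marker with the highest level. It was 11.97 to 11.99 at 0 h, 11.86 to 11.97 at 3 h and 11.64 to 11.70 at 48 h in rdm4, against 10.66 to 10.69, 12.58 and 11.71 in WT, on a log2 scale. That of 3 leaf markers (of 11 listed) lay between 14.77 and 15.25 on all arrays and was lowest at 48 h in both genotypes. At 48 h all 3 leaf markers were called lower in the mean over both genotypes, LHCB4.2 by the most (-1.77 ± 0.07 in rdm4 and -1.11 ± 0.07 in WT). All 4 root markers were called higher in that mean. In rdm4, 3 of them were higher and PYK10 was lower, and in WT all 4 were higher. An RNA quality control, the excess of the GAPDH 3′ probe set over the 5′ one in log2 units, was 0.793 and 0.638 at 0 h, 0.748 and 0.823 at 3 h and 0.612 and 0.534 at 48 h in rdm4. In WT it was 0.858 and 0.974, 0.714 and 0.622, and 0.518 and 0.566, so that all 48 h arrays lay below all earlier ones. Chilling responses are therefore given first as the mean over both genotypes, which does not depend on which array carries which genotype label.

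The levels of these genes ranged widely across the 6 groups. The highest and lowest group means of a gene differed by at least 2-fold in 29 of the 58 members, which is 50% against 24.7% of all probe sets. At least a 4-fold span was found in 13 members, 22.4% against 6.19% of all probe sets. The 4 members with a span of at least 8-fold were UGT73C1 (16.1-fold), UGT78D3 and UGT78D2 (13.2-fold each) and UGT78D1 (12-fold). At the other end, UGT71B5, UGT71B8, UGT73C2, UGT76E1, UGT84B1 and UGT84B2 were called in none of the 12 comparisons. All 6 of these lay among the dimmest probe sets in 2 or more of the groups.

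**Figure D1:**
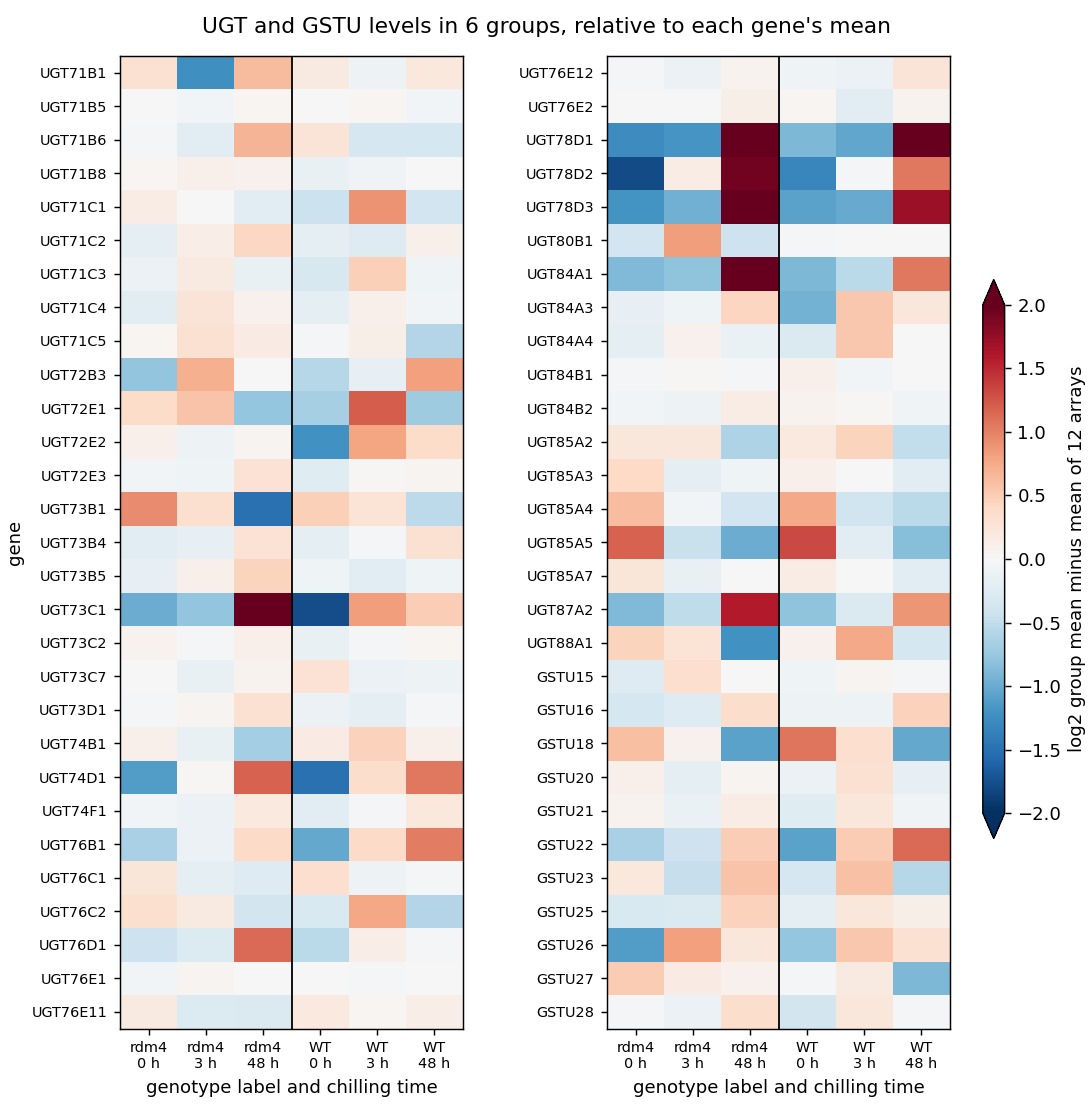
Mean log2 level of each of the 58 UGT and GSTU genes in each of the 6 groups, shown as its deviation from the gene's own mean over all 12 arrays (colour). The 3 UGT78D genes are above their means in both 48 h groups, and UGT85A5 and GSTU18 are below theirs there.

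After 48 h of chilling, taken over both genotypes, 27 members were higher and 16 lower than at 0 h. Over all probe sets, 27.4% were called higher and 30.3% lower. The median change of the 58 members was 0.12, against -0.01 over all probe sets, and the median size of a change was 0.41 against 0.22. Changes of at least 2-fold were called upward in 12 members and downward in 5, where the share of all probe sets was not counted. The GAPDH quality values and leaf markers were lower at 48 h and the root markers higher, in the mean over both genotypes, and their part was not tested. In rdm4 alone, 3 root markers were higher and 1 lower at 48 h, and their summed level was lower than at 0 h. By family, 21 of 47 UGT genes rose and 14 fell, and 6 of 11 GSTU genes rose and 2 fell.

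The flavonoid glycosyltransferases gave the largest rises. UGT78D1, which adds rhamnose to the 3-hydroxyl of flavonols, had levels of 5.56 and 5.60 at 0 h, 5.69 and 5.62 at 3 h and 9.13 and 9.19 at 48 h in rdm4. In WT its levels were 5.89 and 5.99, 5.75 and 5.85, and 8.87 and 8.87 at these times. All 4 arrays at 48 h stood far above the earlier ones, and the 48 h change was 3.26 ± 0.05 (adjusted p = 5.19e-14).

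UGT78D3, which adds arabinose at the same position, followed the same course. Its levels were 4.19 and 4.23 at 0 h, 4.48 and 4.40 at 3 h and 7.67 and 8.20 at 48 h in rdm4, and 4.40 and 4.25, 4.62 and 4.17, and 6.95 and 7.29 in WT. The change at 48 h was 3.26 ± 0.12 (adjusted p = 1.27e-10), from a level among the dimmest probe sets. Neither gene was called at 3 h (-0.03 ± 0.05 for UGT78D1 and 0.15 ± 0.12 for UGT78D3).

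UGT78D2, the flavonoid 3-O-glucosyltransferase, had already risen at 3 h. It stood at 7.66 and 7.81 at 0 h, 9.70 and 9.64 at 3 h and 11.45 and 11.46 at 48 h in rdm4, and at 8.27 and 8.17, 9.48 and 9.49, and 10.61 and 10.55 in WT. The groups of the 3 times did not overlap in either genotype. The change was 1.60 ± 0.05 at 3 h (adjusted p = 8.98e-11) and 3.04 ± 0.05 at 48 h (adjusted p = 1.16e-13).

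The list of flavonoid and anthocyanin glycosyltransferases had 5 measured genes, and 4 of them rose at 48 h, with a median of 3.04. The fourth was UF3GT, an anthocyanin glycosyltransferase that is no member, at 1.07 ± 0.05. In the mean over both genotypes UF3GT was lower at 3 h, at -0.42 ± 0.05, where UGT78D2 was higher. This mean joins unlike changes. Group means of UF3GT went from 7.24 at 0 h to 6.24 at 3 h in rdm4 (called) and from 6.71 to 6.85 in WT (not called). AT5G54010 was not called at 48 h, at 0.04 ± 0.07, from a dim level.

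A further role is the conjugation of hydroxycinnamic acids and monolignols. UGT84A1, which makes glucose esters of hydroxycinnamic acids, had levels of 4.58 and 4.30 at 0 h, 4.47 and 4.56 at 3 h and 7.50 and 7.34 at 48 h in rdm4, against 4.42 and 4.42, 4.80 and 4.78, and 6.46 and 6.29 in WT. All 4 arrays at 48 h were above every earlier array, and the change was 2.47 ± 0.07 (adjusted p = 8.32e-12), again from a dim level at 0 h. Its relatives UGT84A3 and UGT84A4, which lie next to it in the genome, changed by 0.89 ± 0.05 (called) and 0.18 (not called).

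The monolignol glucosyltransferases of the UGT72E group did not move together. UGT72E2 rose by 0.77 ± 0.06 and UGT72E3 by 0.32 at 48 h, while UGT72E1 changed by -0.59 ± 0.06 (adjusted p = 9.00e-07). These means join unlike changes, since UGT72E2 changed by -0.05 in rdm4 and 1.59 in WT at 48 h, and UGT72E1 by -1.13 and -0.05. Of the 7 measured genes of the phenylpropanoid list, GT72B1 included, 5 rose and 1 fell at 48 h over both genotypes. At 3 h, where 17.1% of all probe sets were called higher in rdm4 and 23.1% in WT, 0 of the 7 were called higher in the arrays labelled rdm4 and all 7 in those labelled WT. The 4 root markers were likewise called higher at 3 h in 0 of 4 cases in rdm4 and in 4 of 4 in WT, and their part was not tested. UGT72B3, of the same UGT72 group, rose by 1.09 ± 0.06 at 48 h.

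**Figure D2:**
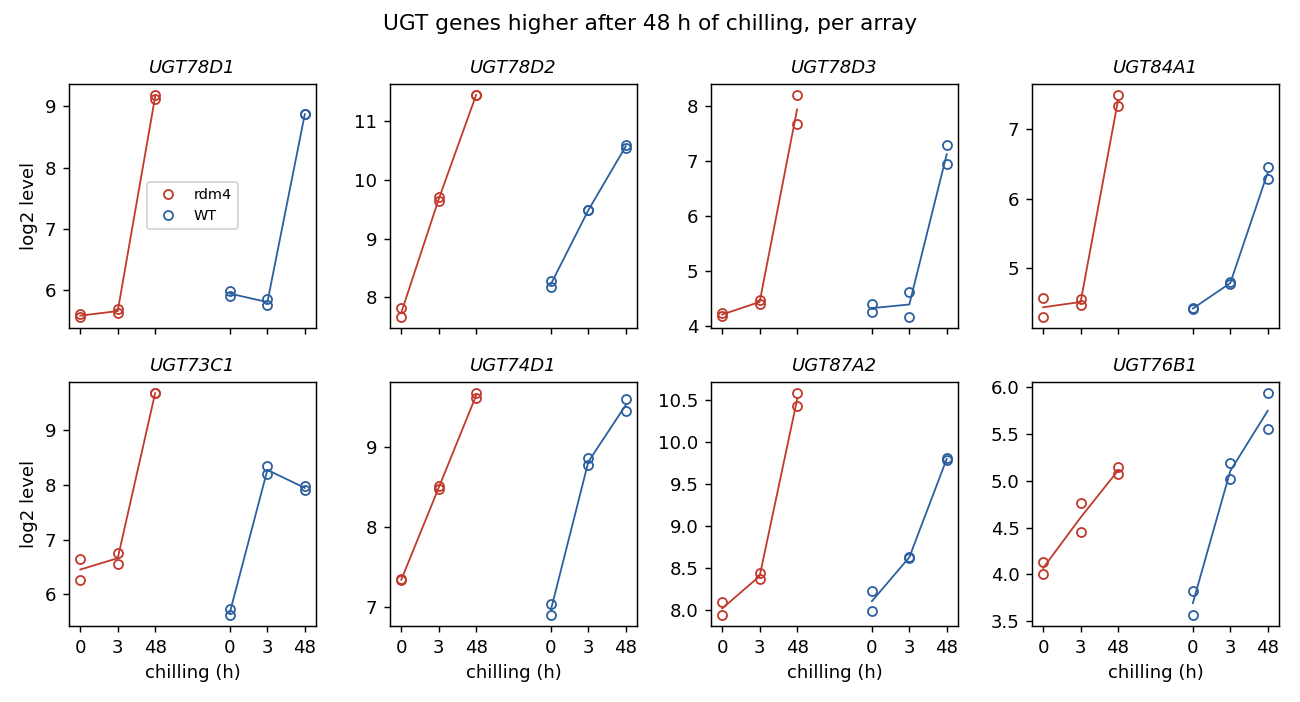
Log2 levels of 8 UGT genes with large rises at 48 h against hours of chilling (0, 3 and 48, evenly spaced and not to scale), 1 point per array, with lines through the group means, for rdm4 and WT. UGT78D1 and UGT78D3 stay near their 0 h level at 3 h, while UGT78D2 and UGT74D1 are already higher there.

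Among enzymes that act on hormones, single members stood out. UGT74D1, which glucosylates auxins and oxidised auxin, had levels of 7.33 and 7.35 at 0 h, 8.47 and 8.51 at 3 h and 9.61 and 9.68 at 48 h in rdm4, and 7.04 and 6.90, 8.78 and 8.86, and 9.45 and 9.61 in WT. The times did not overlap in either genotype, with changes of 1.50 ± 0.05 at 3 h and 2.43 ± 0.05 at 48 h (adjusted p = 1.18e-12). The other measured auxin conjugating enzymes, UGT84B1 and UGT84B2, were dim in all groups and were not called.

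UGT73C1, which can glucosylate cytokinins, had levels of 6.25 and 6.65 at 0 h, 6.56 and 6.76 at 3 h and 9.69 and 9.68 at 48 h in rdm4. In WT it stood at 5.62 and 5.73, 8.20 and 8.35, and 7.98 and 7.91 at these times. In both genotypes the 48 h arrays were above the 0 h arrays, with a mean change of 2.75 ± 0.08 (adjusted p = 1.57e-11), while at 3 h only the arrays labelled WT were high. The cytokinin N-glucosyltransferases UGT76C1 and UGT76C2 were lower at 48 h, at -0.44 ± 0.09 and -0.48 ± 0.08.

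UGT76B1, which conjugates isoleucic acid, salicylic acid and N-hydroxypipecolic acid, had levels of 4.13 and 4.01 at 0 h, 4.77 and 4.45 at 3 h and 5.07 and 5.15 at 48 h in rdm4, and 3.82 and 3.56, 5.19 and 5.02, and 5.56 and 5.94 in WT. The 48 h arrays were above all 0 h arrays, and the change was 1.55 ± 0.10 (adjusted p = 1.71e-08), from a level among the dimmest probe sets. UGT74F1, which conjugates salicylic acid, rose by 0.34, also from a dim level, and UGT76D1, which glucosylates dihydroxybenzoic acids, by 1.03 ± 0.09.

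Other hormone and defence lists showed smaller changes at 48 h in the mean over both genotypes, and some of these means join unlike changes. Of the 3 measured abscisic acid conjugating enzymes, 1 was lower, UGT71C5 at -0.21 ± 0.05. It changed by 0.13 in rdm4 (not called) and -0.55 in WT (called). UGT71B6, not called in the mean, changed by 0.71 in rdm4 and -0.61 in WT. Of the 4 jasmonate-related UGT76E genes, UGT76E12 was higher at 0.22, at a dim level, and UGT76E11 lower at -0.27. Group means of UGT76E11 went from 7.92 to 7.45 in rdm4 (called) and from 7.93 to 7.86 in WT (not called). UGT74B1, which glucosylates the thiohydroximate precursors of glucosinolates, was lower at -0.43 ± 0.05 (adjusted p = 1.31e-05). Its fall was called in rdm4 (-0.79) and not in WT (-0.07), and the difference of -0.73 was called. The pathogen and redox responsive genes UGT73B4 and UGT73B5 rose by 0.49 and 0.30, UGT73B4 at a dim level. Group means of UGT73B5 went from 5.64 to 6.24 in rdm4 (called) and from 5.71 to 5.72 in WT (not called). The sterol glucosyltransferase UGT80B1 was not called (-0.01 ± 0.06). UGT87A2, known for a part in flowering time, had levels of 7.94 and 8.10, 8.36 and 8.44, and 10.42 and 10.58 in rdm4 at 0, 3 and 48 h, and 7.99 and 8.22, 8.62 and 8.63, and 9.81 and 9.79 in WT. Its 48 h arrays were above all others, with a change of 2.09 ± 0.06 (adjusted p = 2.00e-11).

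The largest fall at 48 h was that of UGT85A5. Its levels were 6.33 and 6.87 at 0 h, 4.97 and 4.99 at 3 h and 4.48 and 4.38 at 48 h in rdm4, and 6.56 and 6.94, 5.10 and 5.29, and 4.53 and 4.63 in WT. The times did not overlap, and the change was -1.59 ± 0.11 at 3 h (adjusted p = 1.15e-07) and -2.17 ± 0.11 at 48 h (adjusted p = 1.99e-09), to a level among the dimmest probe sets. The other measured UGT85A genes, UGT85A2, UGT85A3, UGT85A4 and UGT85A7, were also lower at 48 h, at -0.77, -0.40, -1.15 and -0.32.

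UGT73B1 had levels of 8.20 and 8.26 at 0 h, 7.60 and 7.61 at 3 h and 5.84 and 5.74 at 48 h in rdm4, and 7.79 and 7.73, 7.66 and 7.46, and 6.87 and 6.64 in WT. All 48 h arrays were below all others, lowest in rdm4, with a mean change of -1.72 ± 0.06 (adjusted p = 1.08e-10). UGT88A1 was at 10.12 and 10.09, 9.92 and 9.95, and 8.43 and 8.49 in rdm4 at the 3 times, and at 9.74 and 9.78, 10.46 and 10.39, and 9.30 and 9.31 in WT. It was lower at 48 h in both genotypes, with a mean change of -1.05 ± 0.04 (adjusted p = 4.35e-10).

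Among the tau glutathione transferases, GSTU22 rose most at 48 h. Its levels were 5.67 and 5.70 at 0 h, 5.88 and 5.98 at 3 h and 6.89 and 6.76 at 48 h in rdm4, against 5.25 and 5.27, 6.88 and 6.82, and 7.46 and 7.48 in WT. The mean change was 1.67 ± 0.05 (adjusted p = 1.32e-11), and the WT arrays at 48 h were the highest of all. GSTU26 stood at 8.01 and 8.38, 10.18 and 10.07, and 9.45 and 9.61 in rdm4 at 0, 3 and 48 h, and at 8.51 and 8.55, 9.84 and 9.85, and 9.62 and 9.61 in WT. It was highest at 3 h in both genotypes, with changes of 1.62 ± 0.07 at 3 h (adjusted p = 2.14e-09) and 1.21 ± 0.07 at 48 h (adjusted p = 1.22e-08).

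The largest fall in this family was that of GSTU18. It was at 8.99 and 9.02 at 0 h, 8.55 and 8.43 at 3 h and 7.40 and 7.29 at 48 h in rdm4, and at 9.45 and 9.51, 8.75 and 8.75, and 7.40 and 7.36 in WT. The times did not overlap within a genotype, and the 48 h change was -1.88 ± 0.05 (adjusted p = 4.60e-12). GSTU27 was also lower, at -0.64 ± 0.05, and GSTU16 and GSTU25, the second of these known for detoxifying trinitrotoluene, rose by 0.64 ± 0.05 and 0.53 ± 0.07. GSTU20, an enzyme linked to glucosinolate synthesis, and its neighbours GSTU21 and GSTU23 were not called in the mean over both genotypes, at -0.05, 0.13 and 0.06. For GSTU23 this mean joins unlike changes. Its group means went from 6.35 to 6.71 in rdm4 (called) and from 5.80 to 5.56 in WT (not called). The difference of these responses, 0.60, was called.

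**Figure D3:**
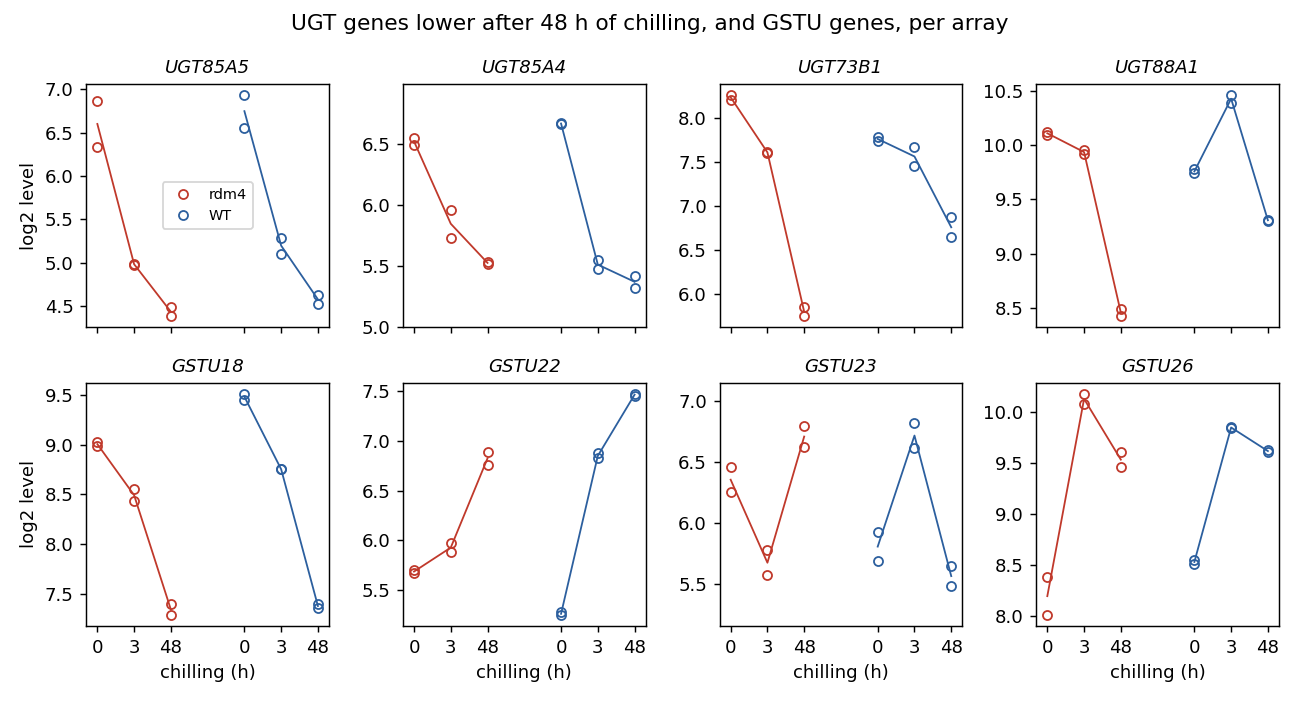
Log2 levels of 4 UGT genes with falls at 48 h and of 4 GSTU genes against hours of chilling (0, 3 and 48, evenly spaced and not to scale), 1 point per array, with lines through the group means, for rdm4 and WT. UGT85A5, UGT85A4 and GSTU18 are lower at 3 h and at 48 h in both genotypes, while GSTU22 and GSTU23 differ between the genotypes at 3 h.

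At 3 h, taken over both genotypes, 24 members were higher and 11 lower than at 0 h, where 19.0% of all probe sets were called higher and 23.5% lower. The median change was 0.12 against -0.03 over all probe sets. The 3 h and 48 h changes share the 0 h arrays. Changes of at least 2-fold were called upward in 5 members and downward in 1, where the share of all probe sets was not counted. The 5 were UGT72E1 at 1.04 ± 0.06, UGT73C1 at 1.41 ± 0.08, UGT74D1, UGT78D2 and GSTU26, and the 1 was UGT85A5. UGT71B1 was lower by slightly less, at -0.91 ± 0.06 (adjusted p = 4.11e-08), and stood at 0.18 ± 0.06 at 48 h. Its 3 h change was -1.54 ± 0.08 in rdm4 and -0.27 ± 0.08 in WT, both called. The rises of UGT72E1 and UGT73C1 over both genotypes came with 0.21 for each in rdm4, not called, against 1.88 and 2.60 in WT. The root markers, called higher at 3 h in WT alone, had their highest sum there, and their part in these rises was not tested.

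From 3 h to 48 h, 22 members rose and 18 fell, where 25.2% of all probe sets were called higher and 26.6% lower. UGT78D1 changed by 3.29 ± 0.05, UGT78D3 by 3.11 ± 0.12 and UGT84A1 by 2.24 ± 0.07. UGT72E1 had the largest fall over this interval, -1.64 ± 0.06 (adjusted p = 1.13e-10). UGT71B1 moved up by 1.09 ± 0.06, with group means from 7.27 to 9.14 in rdm4 and from 8.41 to 8.72 in WT.

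Taken by genotype, the 48 h responses of rdm4 and WT use no common array. In rdm4, 27 members were higher and 14 lower at 48 h, against 22.8% and 27.8% of all probe sets. In WT, 23 were higher and 13 lower, against 24.6% and 25.8%. Called in both genotypes were 30 members, of which 20 rose in both, 9 fell in both and 1 moved in opposite directions. Over all 22746 probe sets, 8955 were called in both, of which 3840 rose in both, 4675 fell in both and 440 (4.91%) had opposite signs.

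The exception was UGT71B6, an abscisic acid glucosyltransferase. Its levels were 4.58 and 4.57 at 0 h and 5.44 and 5.12 at 48 h in rdm4, and 5.02 and 4.69 at 0 h and 4.46 and 4.03 at 48 h in WT. It changed by 0.71 ± 0.15 in rdm4 and -0.61 ± 0.15 in WT, with dim levels in 4 of the 6 groups. The call in WT was lost without replicate 1 of WT at 0 h (-0.44, adjusted p = 0.0611) or replicate 2 of WT at 48 h (-0.39, adjusted p = 0.0679).

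The size of the 48 h response differed between genotypes in 25 members by the test of the difference itself. It was higher (more positive) in rdm4 in 14 and lower in 11, where 9.47% and 12.7% of all probe sets were called. Among enzymes of flavonoid and hydroxycinnamate conjugation, UGT78D2 changed by 3.72 ± 0.07 in rdm4 and 2.35 ± 0.07 in WT, a difference of 1.37 ± 0.10 (adjusted p = 9.84e-07). UGT78D1 changed by 3.58 and 2.93 (difference 0.65 ± 0.10), and UGT84A1 by 2.98 and 1.95 (difference 1.02 ± 0.14, adjusted p = 0.000165). For UGT78D3 the changes were 3.72 and 2.80. The difference of 0.93 ± 0.25 (adjusted p = 0.0164) was not called without replicate 1 of WT at 0 h (0.86, adjusted p = 0.0608), replicate 1 of WT at 48 h (0.76, adjusted p = 0.0709) or replicate 2 of rdm4 at 48 h (0.66, adjusted p = 0.062).

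Other members had a larger upward response in rdm4. UGT73C1 changed by 3.23 in rdm4 and 2.27 in WT, UGT87A2 by 2.48 and 1.69, and UGT76D1 by 1.55 and 0.51. The differences were 0.96 ± 0.16, 0.79 ± 0.13 and 1.04 ± 0.18, all called. For UGT74D1 and UGT85A5 the differences of -0.26 ± 0.11 and 0.00 ± 0.22 were not called.

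Members with a smaller or more negative response in rdm4 included UGT72E2, at -0.05 ± 0.08 in rdm4 and 1.59 ± 0.08 in WT (difference -1.63 ± 0.12, adjusted p = 7.31e-07). Its levels in rdm4 lay between 7.12 and 7.40 on all 6 arrays, against 6.12 and 5.93 at 0 h and 7.65 and 7.58 at 48 h in WT. UGT73B1 was 5.42-fold lower at 48 h in rdm4 and 2.01-fold lower in WT (log2 difference -1.43 ± 0.13), and UGT88A1 changed by -1.65 and -0.45 (difference -1.20 ± 0.09). GSTU22 changed by 1.14 and 2.21 (difference -1.07 ± 0.10), and UGT76B1 by 1.04 and 2.06 (difference -1.01 ± 0.19). The 48 h response of the root marker AT5G17820, a peroxidase, also differed, since its levels were 6.50 and 6.56 at 0 h and 7.09 and 7.22 at 48 h in rdm4, against 4.74 and 4.77 at 0 h and 7.01 and 7.09 at 48 h in WT. Of the 4 root markers, 2 had a called lower 48 h response in rdm4, AT5G17820 and PYK10. Group means of PYK10 went from 11.92 to 11.57 in rdm4 and from 10.60 to 11.62 in WT. The part of root RNA in these differences was not tested.

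**Figure D4:**
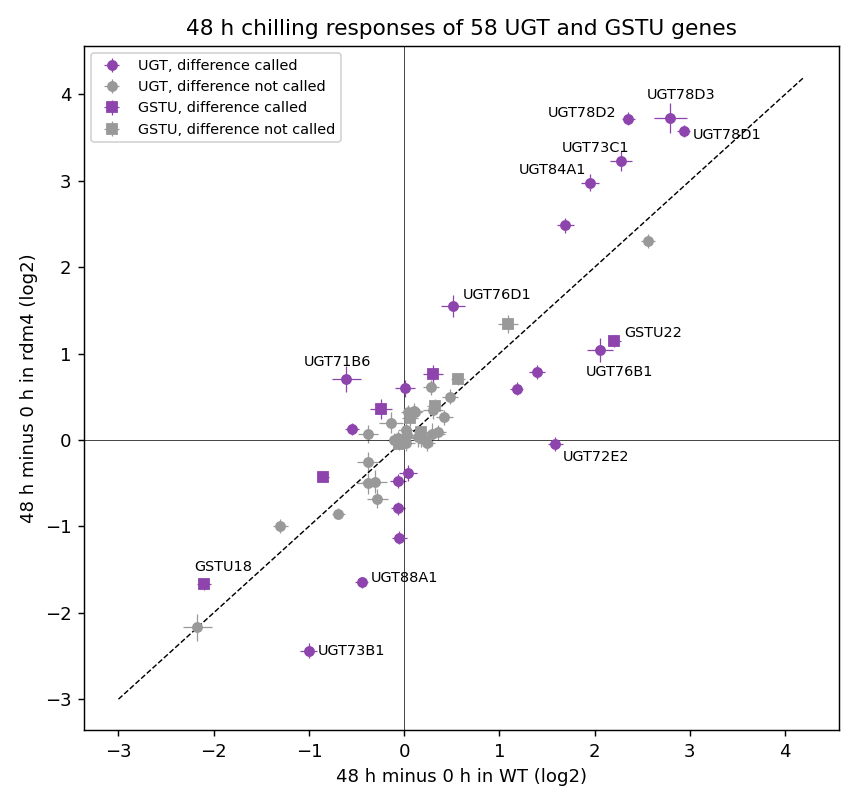
Log2 change from 0 h to 48 h in rdm4 (vertical axis) against that in WT (horizontal axis) for the 58 genes, with SE bars; circles are UGT and squares GSTU genes, purple marks a called difference between the genotypes, and the dashed line marks equal change. UGT78D1, UGT78D2, UGT78D3, UGT84A1 and UGT73C1 lie above the line, and UGT72E2, GSTU22 and UGT73B1 below it.

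Between the genotypes at a single time, 15 members had higher and 6 had lower levels in rdm4 at 0 h, where 16.1% and 13.7% of all probe sets were called. The 6 lower became 3 without replicate 2 of WT at 0 h and 4 without replicate 2 of rdm4 at 0 h. The largest differences were in the monolignol enzymes UGT72E2 (7.30 and 7.40 in rdm4, 6.12 and 5.93 in WT, 1.32 ± 0.08, adjusted p = 2.64e-07) and UGT72E1 (7.86 and 7.84 in rdm4, 6.77 and 6.89 in WT, 1.02 ± 0.08). UGT73C1, UGT84A3 and UGT76C2 were higher by 0.78 ± 0.12, 0.78 ± 0.07 and 0.63 ± 0.11. The 4 root markers were all higher in rdm4 at 0 h as well, and the part of root RNA in these differences was not tested. The lower members included UGT78D2 at -0.49 ± 0.07, GSTU18 at -0.48 ± 0.07 and UGT78D1 at -0.36 ± 0.07.

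At 3 h, 6 members had higher levels in the arrays labelled rdm4 and 24 had lower levels there, where 17.6% and 19.1% of all probe sets were called. With each array centred on its median, 12 of 33 called members were higher, 36.4% in place of 20%. The 6 became 3 without replicate 1 of rdm4 at 3 h and 4 without either WT array at 3 h. The largest differences were UGT73C1 at -1.62 ± 0.12, UGT71B1 at -1.14 ± 0.08, GSTU23 at -1.04 ± 0.11 and GSTU22 at -0.92 ± 0.07. The highest members were UGT72B3 at 0.88 ± 0.08 (8.73 and 8.83 in rdm4, 7.88 and 7.92 in WT) and UGT80B1 at 0.85 ± 0.09 (9.14 and 9.14 in rdm4, 8.33 and 8.25 in WT). The 4 root markers were all called lower in rdm4 at 3 h, AT5G17820 with 6.40 and 6.57 in rdm4 against 8.01 and 8.06 in WT, and their part was not tested.

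Called at both 0 h and 3 h were 15 of the 58 members, against 4668 of 22746 probe sets. Of the 15, 14 had opposite signs at these times, or 93.3% against 92.7% over all probe sets. Some of these calls rest on 1 array. Without replicate 2 of rdm4 at 0 h, those of GSTU20 (0.17, adjusted p = 0.203) and UGT80B1 (-0.26, adjusted p = 0.0995) were lost, and without replicate 1 of that group those of GSTU21 (0.27, adjusted p = 0.0627) and GSTU28 (0.23, adjusted p = 0.0964). The member with the same sign was GSTU18, lower in rdm4 at both times, although its call at 3 h (-0.26 ± 0.07) was lost without replicate 2 of rdm4 at 3 h (-0.20, adjusted p = 0.0938). UGT72E2, UGT71C1 and UGT84A3 had their lowest group mean in WT at 0 h and their highest in WT at 3 h, as did AT5G17820.

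**Figure D5:**
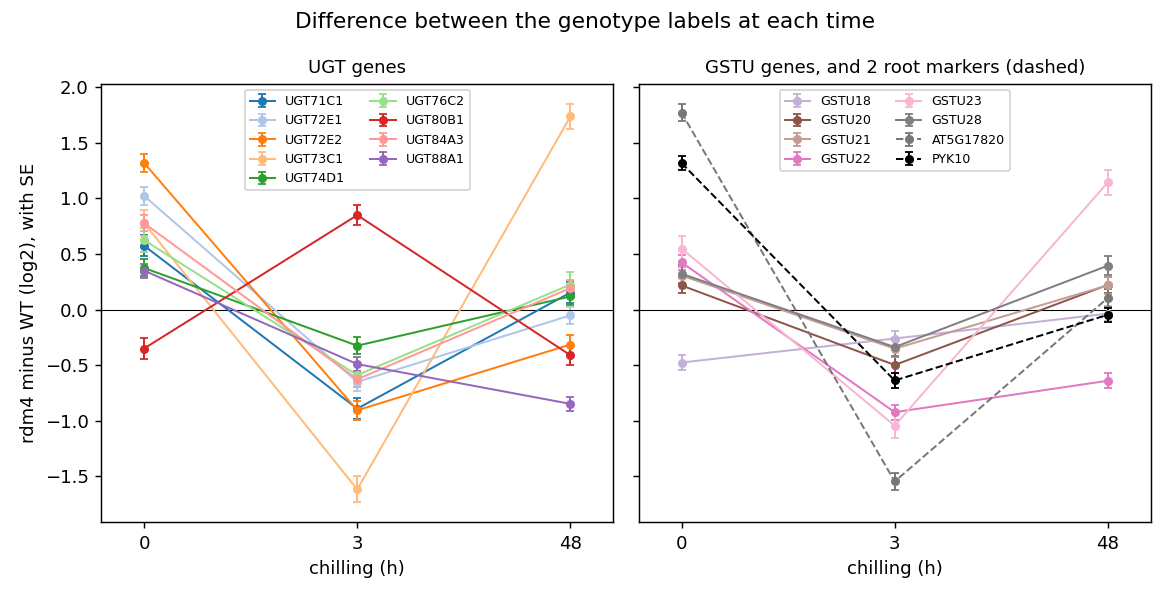
Log2 difference rdm4 minus WT at 0, 3 and 48 h of chilling (evenly spaced) for the 15 members called at both 0 h and 3 h (UGT left, GSTU right), with the root markers AT5G17820 and PYK10 as dashed lines. All but GSTU18 and UGT80B1 are above 0 at 0 h and below 0 at 3 h, as are both root markers, and UGT80B1 has the opposite course.

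At 48 h, 19 members had higher and 9 had lower levels in rdm4, where 16.0% and 19.0% of all probe sets were called. UGT73C1 was higher by 1.74 ± 0.12 (adjusted p = 2.39e-07), UGT76D1 by 1.16 ± 0.13 (6.58 and 6.66 in rdm4, 5.49 and 5.44 in WT), GSTU23 by 1.15 ± 0.11 (6.62 and 6.79 in rdm4, 5.64 and 5.48 in WT) and UGT84A1 by 1.04 ± 0.10. The abscisic acid conjugating enzymes UGT71B6 and UGT71C5 were higher by 1.03 ± 0.15 and 0.74 ± 0.07, and GSTU27 by 0.98 ± 0.06. The flavonoid enzymes UGT78D2 and UGT78D3 were higher by 0.88 ± 0.07 and 0.81 ± 0.17, and UGT78D1 by 0.29 ± 0.07. Lower in rdm4 were UGT73B1 at -0.96 ± 0.09, UGT88A1 at -0.85 ± 0.06, UGT72B3 at -0.81 ± 0.08 and the glucosinolate enzyme UGT74B1 at -0.78 ± 0.08. At this time the summed root markers were at 11.64 to 11.70 in rdm4 and 11.71 in WT, and the GAPDH quality values were 0.612 and 0.534 in rdm4 and 0.518 and 0.566 in WT.

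Called between the genotypes at both 0 h and 48 h were 13 of the 58 members, against 3977 of 22746 probe sets. Of the 13, 6 had opposite signs, 46.2% against 22.2% over all probe sets. These were UGT72E2, UGT73B1, UGT78D1, UGT78D2, UGT88A1 and GSTU22. UGT78D1 and UGT78D2 were lower in rdm4 at 0 h and higher at 48 h, and the other 4 were higher at 0 h and lower at 48 h. The call of UGT72E2 at 48 h (-0.31 ± 0.08) was lost without replicate 1 of WT at 48 h (-0.28, adjusted p = 0.075).

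The 3 h responses as labelled differed more. In the arrays labelled rdm4, 13 members were higher and 14 lower at 3 h than at 0 h, against 17.1% and 22.9% of all probe sets. In those labelled WT, 28 were higher and 8 lower, against 23.1% and 23.7%. The 14 lower in rdm4 became 9 without replicate 1 of rdm4 at 3 h, and the 8 lower in WT became 4 without replicate 1 of WT at 0 h and 5 without replicate 2 of WT at 3 h. Called in both were 19 members, of which 9 rose in both, 5 fell in both and 5 moved in opposite directions, or 26.3% against 45.1% over all probe sets. Over all 22746 probe sets, 6074 were called in both, of which 1585 rose in both and 1749 fell in both. UGT78D2 rose by 1.94 ± 0.07 in rdm4 and 1.26 ± 0.07 in WT, UGT74D1 by 1.15 and 1.85 and GSTU26 by 1.93 and 1.32, and UGT85A5 changed by -1.62 and -1.55.

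The difference of the 3 h responses was higher in rdm4 in 8 members and lower in 23, where 20.8% and 22.4% of all probe sets were called, and with median centring 11 of 30 were higher, 36.7% in place of 25.8%. UGT73C1 changed by 0.21 ± 0.12 in rdm4 and 2.60 ± 0.12 in WT, a difference of -2.40 ± 0.16 (adjusted p = 2.39e-07). UGT72E2 changed by -0.21 and 2.01, and UGT72E1 by 0.21 and 1.88. In the other direction, UGT80B1 changed by 1.22 in rdm4 and 0.02 in WT, a difference of 1.20 ± 0.13 (adjusted p = 9.61e-06), and UGT72B3 by 1.50 and 0.41.

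Many members lie side by side in the genome. With at most 3 genes between members of the same family, 39 of the 58 fell into 16 runs of neighbours, the longest of 4 genes (gene order of the TAIR10.1 RefSeq table). Neighbours often changed by different amounts. In the run UGT84A1, UGT84A3 and UGT84A4 the 48 h changes were 2.47, 0.89 and 0.18, and UGT73C1 stood at 2.75 beside UGT73C2 at 0.10, the second dim in all groups. In the run GSTU23, GSTU22, GSTU21 and GSTU20, GSTU22 changed by 1.67 and the other 3 were not called in the mean over both genotypes. UGT78D3 and UGT78D2, with 1 gene between them, changed by 3.26 and 3.04, although at 3 h they were at 0.15 and 1.60. In the run UGT85A7, UGT85A2, UGT85A5 and UGT85A3 all 4 were lower at 48 h.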

How the data were processed

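Leaf RNA was hybridised to 12 one-colour ATH1 arrays. The authors deposited 1 log2 value per probe set and array (scale found from the values, array medians 6.33 to 6.43); summarisation and normalization are not given in the sources used here. Of 22810 probe sets, 64 controls were left out. The platform annotation paired 13513 with 1 gene, 503 with several and 8730 with none. All 58 members matched the RefSeq gene table. The deposited values were fitted with limma 3.58.1 in R 4.3.3 (lmFit and eBayes, 6 group means, 6 residual and 5.97 prior degrees of freedom) in 12 comparisons, and the fit was tested on simulated data. Groups and replicate numbers came from the titles. No label says that replicates came from separate plants beyond different growth chambers, so p-values measure the spread between these arrays, whose number limits the precision. Replicate numbers did not pair the arrays: deviations of same-numbered arrays correlated between -0.153 and 0.267 over pairs of groups. In each comparison, named were up to 6 rises and 6 falls among UGT genes, up to 3 of each among GSTU genes (up to 5 of each over all members for differences of responses) and members of the role lists. Members and lists were chosen with earlier results of these data known. Any other member named was chosen after its values were seen.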

Additional observations from a re-analysis of the deposited data

Results flagged for a closer look

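The test of the difference between the genotypes' responses (rdm4 minus WT, log2) called these members, each among the named members with the largest differences. For the change from 0 h to 3 h, the difference was -2.40 in UGT73C1, -2.23 in UGT72E2, -1.67 in UGT72E1, -1.59 in GSTU23 and -1.47 in UGT71C1. In the other direction it was 1.20 in UGT80B1, 1.09 in UGT72B3, 0.68 in UGT78D2, 0.62 in GSTU26 and 0.48 in UGT85A4. The 4 root markers were called higher in rdm4 at 0 h and lower at 3 h, and their part in these values was not tested.

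For the change from 0 h to 48 h, the difference was 1.37 in UGT78D2, 1.31 in UGT71B6, 1.04 in UGT76D1, 1.02 in UGT84A1 and 0.96 in UGT73C1. It was -1.63 in UGT72E2, -1.43 in UGT73B1, -1.20 in UGT88A1, -1.08 in UGT72E1 and -1.07 in GSTU22. Of the 4 root markers, 2 had a called lower 48 h response in rdm4, and their part in these values was not tested.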

How the results depend on the processing

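The alternatives were repeated quantile normalization, median centring, leaving out the dimmest 30% of probe sets, eBayes with trend and robust estimation, a replicate block, fits of the compared arrays alone or without the 3 h arrays, and leaving out each array in turn. The mean of several probe sets per gene was not run, since each member has 1. The fit without the dimmest 30% of probe sets held 43 of the 58 members, so calls of the remaining members could not be lost there. None of the 12 counts of called members, both directions together, moved by over 1.5 times: without 1 array, 41 to 43 members were called for the 48 h mean change (43 in all), 19 to 27 for the 3 h change in rdm4 (27) and 21 to 32 for rdm4 against WT at 3 h (30). Counts in 1 direction moved more: the 8 lower at 3 h in WT, 14 lower at 3 h in rdm4, 6 lower in rdm4 at 0 h and 6 higher in rdm4 at 3 h fell to 4, 9, 3 and 3 without the array that each rested on most. With the replicate number as a block, 42 were called for the 48 h mean change, although no label says that the numbers pair the arrays. Of 393 called results, 84 lost the call under some alternative, 27 of them outside the fits without 1 array, and 0 changed sign. None of the 118 called results of at least 2-fold lost the call, and the largest that did was the difference of the 48 h responses of UGT78D3, at 0.93. A gene's signal over background was not measured, which limits the 9 members with dim levels in all groups and the 13 with dim levels in some.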

Other observations

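Other genes around glutathione and glycosides were measured too. The glutathione reductase GR1 had levels of 9.56 and 9.50 at 0 h, 9.86 and 9.87 at 3 h and 10.84 and 10.74 at 48 h in rdm4, and 9.19 and 9.35, 10.55 and 10.42, and 11.04 and 10.98 in WT. It rose by 1.50 ± 0.05 at 48 h, and the plastid enzyme GR by 0.34 ± 0.05. Group means of GR went from 10.97 to 11.14 in rdm4 (not called) and from 10.75 to 11.26 in WT (called). For both reductases the 48 h response was called lower in rdm4. Of 3 other glutathione transferases, GSTL3 was lower at -0.78 ± 0.05 and GSTF4 and ATGSTF13 were not called. Of 22 genes listed as β-glucosidases, which remove glucose from conjugates, 4 were higher and 9 lower at 48 h, where 27.4% and 30.3% of all probe sets were called. The lowest were BGLU40 at -1.63 ± 0.06 and BGLU43 at -1.54 ± 0.07, the second at a dim level. The highest mean, 0.33 ± 0.05, was that of PYK10, a root enzyme, which changed by -0.35 ± 0.06 in rdm4 and 1.01 ± 0.06 in WT. The steryl glucosyltransferase SGT changed by 0.14 ± 0.05, with group means from 8.46 to 8.47 in rdm4 (not called) and from 8.29 to 8.56 in WT (called).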
